A study of Homo sapiens with 6 samples.

Results

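Histone-modifying enzymes and Polycomb genes were followed in SUM159, a human breast cancer cell line of the triple-negative kind, after 72 h in medium with 1 µM decitabine. Decitabine is a cytosine nucleoside analogue that cells incorporate while copying DNA, where it binds DNA methyltransferases covalently and depletes them. The comparison was with SUM159 cells kept for 72 h in untreated medium, and each group had 3 samples, each on 1 expression array. Per the labels, medium was refreshed daily in the treatment, and no vehicle, clone or passage is described. The members are 56 listed genes: 11 HDAC deacetylases, 6 sirtuins, 11 KDM demethylases, 11 Polycomb genes, 7 genes of H3K9 methylation, 6 methyltransferases of active chromatin and 4 acetyltransferases. Of these, 47 had an array feature with a single gene symbol, among 14884 genes so named, and where a gene had several features the one of highest mean was used. The 9 members EED, JARID2, RNF2, BMI1, CBX8, SETDB1, SETDB2, KMT2A and DOT1L are not analysed here, for want of a named feature. No filter on low values was applied, so all 47 entered the test.

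Histones are marked on their tails by enzymes that add or remove acetyl and methyl groups, and the marks help to set whether the DNA wrapped around them is read. Acetyltransferases such as EP300 open chromatin and deacetylases reverse them. Polycomb repressive complex 2 methylates H3K27, and Polycomb repressive complex 1 binds that mark and ubiquitinates histone H2A, both in gene silencing. SUV39H and EHMT enzymes methylate H3K9 in silent chromatin, a mark that is linked to DNA methylation, the process that decitabine disrupts.

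Deposited values were taken to be on a log2 scale, where a difference of 1 is 2-fold. Both replicate 1 arrays had higher medians over all features (3.03 untreated, 2.98 decitabine) than the remaining 4 arrays (2.29 to 2.42), and samples were compared in same-numbered pairs. As a check of the label, vimentin (VIM), a marker of mesenchymal-like carcinoma lines, had values of 8.66 to 9.68, EGFR had 7.01 to 8.30, KRT18 7.57 to 7.97 and CD44 6.14 to 7.27. KRT8 was lower, at 3.41 to 4.45, and the basal keratin KRT5 was at 2.35 to 2.97 in untreated cells, near the array medians. After decitabine KRT5 rose by 1.75 and EGFR fell by 1.15 on the log2 scale (limma adjusted p = 0.0295 and 0.00504 in the paired fit). The oestrogen and progesterone receptor genes ESR1 and PGR had 1.5 to 2.95, near or below the array medians. ERBB2 had no named feature. Of the markers of leukocytes, CD14 and LYZ were measured, and CD14 went from 2.32 to 2.60 in untreated cells to 3.08 to 3.34 in decitabine (adjusted p = 0.0247 in the paired limma fit). LYZ was at 1.04 to 2.20 over all arrays, PTPRC and CD3E had no named feature, and the part of CD14 in the results was not tested.

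Promoter sequences are shown for 4 members that held a match to the motifs given below. They are SUV39H2 and KDM1B, which were higher in decitabine, EZH1, which was lower, and EZH2, the close relative of EZH1, which did not pass the test. Each is the RefSeq window (GRCh38.p14) from 250 bases before the start site to 20 bases after it, 5′ to 3′ on the gene's strand. Capitals mark matches, on either strand, to an E2F motif (TTTGGCGC, TTTCCCGC, TTTCGCGC or TTTGCCGC) or to the CREB/ATF motif TGACGTCA. E2F factors drive genes of S phase, and CREB/ATF factors respond to signalling and stress.
SUV39H2, chr10:14878616-14878885, plus strand: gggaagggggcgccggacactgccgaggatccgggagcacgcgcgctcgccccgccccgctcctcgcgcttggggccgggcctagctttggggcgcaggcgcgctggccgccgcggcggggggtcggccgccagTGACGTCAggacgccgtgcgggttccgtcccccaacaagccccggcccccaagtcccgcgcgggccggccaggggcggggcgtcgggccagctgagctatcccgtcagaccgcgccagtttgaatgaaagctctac
KDM1B, chr6:18155172-18155441, plus strand: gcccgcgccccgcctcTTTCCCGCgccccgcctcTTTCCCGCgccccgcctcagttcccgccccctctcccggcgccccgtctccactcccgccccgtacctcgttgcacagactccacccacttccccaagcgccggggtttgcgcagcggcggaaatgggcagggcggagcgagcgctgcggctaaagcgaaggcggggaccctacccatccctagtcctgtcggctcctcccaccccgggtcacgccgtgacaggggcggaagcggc
EZH1, chr17:42745021-42745290, minus strand: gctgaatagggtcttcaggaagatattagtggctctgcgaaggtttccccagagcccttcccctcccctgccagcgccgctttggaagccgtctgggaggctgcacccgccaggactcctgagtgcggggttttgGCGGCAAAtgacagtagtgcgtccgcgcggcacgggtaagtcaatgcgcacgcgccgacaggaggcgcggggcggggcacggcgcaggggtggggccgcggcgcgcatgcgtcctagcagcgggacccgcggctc
EZH2, chr7:148884272-148884541, minus strand: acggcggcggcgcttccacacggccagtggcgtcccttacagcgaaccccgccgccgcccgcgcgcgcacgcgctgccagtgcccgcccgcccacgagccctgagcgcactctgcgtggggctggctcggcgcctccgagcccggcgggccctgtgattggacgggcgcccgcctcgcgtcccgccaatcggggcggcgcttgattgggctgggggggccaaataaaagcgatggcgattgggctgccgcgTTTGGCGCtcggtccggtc

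The KDM1B window held 2 E2F matches and the EZH1 and EZH2 windows 1 each. A link between the letters and the direction of change was not tested. The EZH2 window is the 1 of its 2 listed windows that had a match. SUV39H2 held the CREB/ATF motif, which was found in no other measured member with a listed window. HDAC1, KDM2B, SIRT5 and KDM6B, which also passed the test, had no E2F or CREB/ATF match in any listed window and are not shown. Over the full windows of 300 bases, 3.31% of all 35116 promoters in the table held an E2F match and 1.85% the CREB/ATF motif. The 43 measured members with a window had 63 windows, of which 5 (7.94%) held an E2F match (in KDM1B, EZH1, EZH2, SUZ12 and SIRT6), 1 (1.59%) the CREB/ATF motif and 19 (30.2%) a CCAAT box (CCAAT), which 34.6% of all promoters held. Member promoters were rich in CG pairs, the bases at which DNA is methylated, with a median of 30 in a window against 14 over all promoters, and the windows of SUV39H2 and KDM1B held 44 and 39. The E2F and CREB/ATF letters themselves contain CG. Each match is a description of the letters and not of a bound site.

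Of the 47 members, 4 rose and 3 fell after decitabine in the paired fit (limma, adjusted p under 0.05 over all 14884 genes). KDM1B, SUV39H2, HDAC1 and KDM2B rose, and SIRT5, KDM6B and EZH1 fell. The 7 are 14.9% of the members, against 13.2% of all genes called, and in the upward direction 4 of 47 stand against 7.79% of all genes and in the downward 3 of 47 against 5.37%. In this fit the share of members called was near that of genes at large. With an intensity trend in the variance prior 14 members (29.8%) were called, against 17.9% of all genes, and with quantile normalization 10 (21.3%), against 15.3%. Members were brighter than other genes, and brightness was not matched in these shares. With the dimmer 50% of genes left out, 31.7% of 41 members were called, against 32.8% of genes. The median change of the 47 was 0.06 on the log2 scale, against -0.02 over all genes, and 3 members (6.38%) had a difference of at least 2-fold in either direction, called or not, against 4.9% of all genes. Without the replicate number as a block, where 3.03% of all genes were called (2.01% upward and 1.02% downward), 1 member (SUV39H2) rose and none fell, with 7 members (14.9%) at an unadjusted p under 0.05, against 13.9% of all genes. In the paired fit, leaving out either replicate 1, 2 or 3 left no gene called among members or all genes, with 1 residual degree of freedom. All 7 members kept an unadjusted p under 0.05 each time. Of all genes 23.6% had one without replicate 1, 16.5% without replicate 2 and 23.2% without replicate 3. The 7 were picked on these same arrays, so their p-values here are not a separate check.

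**Figure D1:**
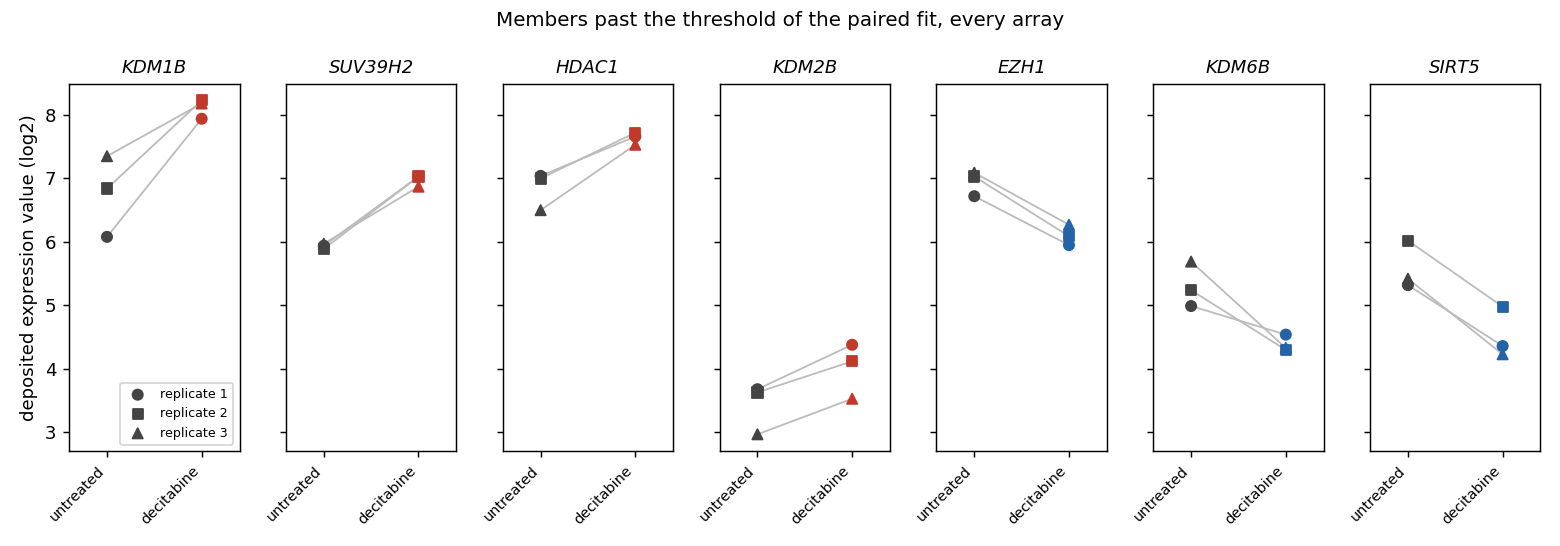
Deposited log2 values (vertical axis) of the 7 members past the threshold in each untreated and decitabine array, with a line joining arrays of the same replicate number and a symbol for each number. All 3 lines rise for KDM1B, SUV39H2, HDAC1 and KDM2B and fall for EZH1, KDM6B and SIRT5; only in KDM2B do the 2 groups overlap, and levels are not comparable between genes.

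Members were on the whole brighter than other genes, with 6 of the 47 (HDAC4, HDAC6, HDAC9, HDAC10, HDAC11 and KDM4B) in the dimmer 50% of genes by mean. With that dimmer 50% left out of the test, 13 of 41 members (31.7%) were called, against 32.8% of the 7442 genes, with 8 upward against 17.6% and 5 downward against 15.2%. The 3 decitabine values lay all above or all below the 3 untreated values in 16 of the 47 members (34.0%), against 20.1% of all genes, and among the brighter genes in 16 of 41 (39.0%) against 34.5%. The change had the same sign in all 3 pairs in 28 of the 47 members (59.6%), against 44.8% of all genes, and in 26 of the 41 brighter members (63.4%), against 61.3% of the brighter genes. Beside the members, 18 of 20 measured genes of replication and proliferation, such as MCM and cyclin genes, rose and none fell, and 12 rose without the block. Of all genes 7.79% rose and 5.37% fell in the paired fit, and 2.01% rose without the block. The median change of the 20 replication and proliferation genes was 1.11 on the log2 scale. The part of these genes in any member's change was not tested.

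Among the class I deacetylases, which remove acetyl groups as parts of repressor complexes, HDAC1 rose and the others did not pass. HDAC1 (Entrez Gene 3065), a catalytic subunit of the Sin3, NuRD and CoREST complexes, had values of 7.04, 7.0 and 6.50 in untreated replicates 1 to 3 and 7.66, 7.72 and 7.53 in decitabine. Every decitabine value lay above every untreated value. Group means ± SD (n = 3 each) were 6.85 ± 0.30 untreated and 7.64 ± 0.10 in decitabine, which is 1.73-fold, a rise of 0.79 on the log2 scale (SE 0.14, limma adjusted p = 0.0190, and 0.122 without the block). HDAC2, its partner in the same complexes, was at 5.92, 5.61 and 6.0 untreated and at 6.25, 6.18 and 6.14 in decitabine. These groups did not overlap either, but the change of 0.35 (95% interval 0.01 to 0.69) missed the threshold at an adjusted p of 0.168. A dimmer feature of HDAC2, with a mean of 2.59, gave -0.04. HDAC3, the deacetylase of the NCoR complex, had a change of -0.09 (-0.45 to 0.28) and HDAC8 one of -0.23 (-0.52 to 0.06).

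Class IIa deacetylases shuttle between nucleus and cytoplasm and act mainly as scaffolds of repressors. All 4 (HDAC4, HDAC5, HDAC7 and HDAC9) had negative mean changes, of -0.31 to -0.13, and none passed the test. A dimmer feature of HDAC4 gave 0.07 where the one used gave -0.28. HDAC5 had values of 3.96, 4.11 and 4.22 untreated and 3.83, 3.62 and 3.92 in decitabine, without overlap, and an adjusted p of 0.198. The tubulin deacetylase HDAC6, the polyamine deacetylase HDAC10 and the class IV member HDAC11 had changes of -0.20, -0.09 and 0.17, none past the threshold. In all, 8 of the 11 HDAC genes had a lower mean and 1 (9.09%) passed, upward. Over all 14884 genes, 7777 had a lower mean and 13.2% were called. Of the dimmer HDAC genes named above, HDAC4, HDAC6, HDAC9 and HDAC10 had lower means and HDAC11 a higher one. A shared direction in the family was not tested.

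Sirtuins remove acyl groups with NAD as a cosubstrate, and SIRT5 was the only one of the 6 to pass in the paired fit. SIRT5 (23408), the mainly mitochondrial enzyme that removes succinyl, malonyl and glutaryl groups, had untreated values of 5.32, 6.02 and 5.42 and decitabine values of 4.36, 4.98 and 4.23. Replicate 2 was the highest in both groups, and the groups did not overlap. Means ± SD over the 3 arrays of a group were 5.59 ± 0.38 untreated and 4.52 ± 0.40 in decitabine, which is 2.09-fold lower, a change of -1.06 on the log2 scale (SE 0.12), with an adjusted p of 0.00608 in the paired limma fit. The drop was 0.96, 1.04 and 1.19 in the 3 pairs, a narrower spread than that between replicates within a group, and without the block the adjusted p was 0.108. SIRT3, another mitochondrial sirtuin, had changes of 0.11, -0.64 and -0.41 in the pairs, a mean of -0.31 that did not pass. SIRT1, a nuclear deacetylase of histones and p53, was at 6.94, 7.10 and 7.27 untreated and 7.51, 7.65 and 7.43 in decitabine, a change of 0.43 (95% interval 0.08 to 0.77) with an adjusted p of 0.109. With the intensity trend SIRT1 was called (limma adjusted p = 0.037). SIRT2, SIRT6 and SIRT7 had changes of 0.08, 0.07 and 0.31, none past the threshold.

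Of the 11 demethylases, KDM1B and KDM2B rose and KDM6B fell. KDM1B (221656), a flavin-dependent demethylase of H3K4 that acts in setting DNA methylation of imprinted genes in oocytes, had values of 6.08, 6.84 and 7.35 untreated and 7.94, 8.23 and 8.18 in decitabine. The untreated arrays spread over more than 1 log2 unit while the decitabine arrays lay close together, and the groups did not overlap. The group means were, ± SD with n = 3, 6.76 ± 0.64 untreated and 8.12 ± 0.16 in decitabine, the largest change of any measured member at 1.36, which is 2.57-fold (SE 0.21, limma adjusted p = 0.0133, and 0.0713 without the block). The rise was 1.86, 1.39 and 0.83 in the pairs. Its paralogue KDM1A, the LSD1 subunit of the CoREST complex, had changes of 0.25, 0.39 and 0.45 in the pairs, a mean of 0.36 (95% interval 0.06 to 0.66) that missed the threshold at 0.115. With the intensity trend KDM1A was called (limma adjusted p = 0.0118).

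KDM2B (84678), which binds unmethylated CpG islands and brings a variant of Polycomb repressive complex 1 to them, had values of 3.68, 3.63 and 2.97 untreated and 4.38, 4.12 and 3.53 in decitabine. The groups overlapped, since decitabine replicate 3 lay below untreated replicates 1 and 2, and replicate 3 was the lowest in both groups. Within pairs it rose by 0.70, 0.49 and 0.56, a mean change of 0.58 (SE 0.12, limma adjusted p = 0.0331), and this call rests on the pairing, with 0.483 without it. Its paralogue KDM2A, another CpG island binder, had changes of 0.65, 0.35 and 0.35 in the pairs and missed the threshold at 0.0801. Under other settings KDM2A was called, with the dimmer 50% of genes left out (limma adjusted p = 0.0338) and with the intensity trend (0.0303). KDM6B (23135), also called JMJD3, which removes the Polycomb mark H3K27 methylation, had values of 4.99, 5.24 and 5.69 untreated and 4.54, 4.30 and 4.33 in decitabine. All decitabine values were below all untreated ones. Group means ± SD (n = 3 each) were 5.31 ± 0.36 untreated and 4.39 ± 0.13 in decitabine, a 1.89-fold lower level and a change of -0.92 on the log2 scale (SE 0.19, limma adjusted p = 0.0326, and 0.0955 without the block). With all array features adjusted together, KDM2B and KDM6B missed the threshold at 0.0691 and 0.0610.

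The KDM4 enzymes demethylate H3K9 and H3K36, and none of the 3 measured passed in the paired fit. KDM4B had the largest change among members that were not called, with values of 2.89, 3.74 and 4.45 untreated and 2.67, 3.20 and 2.68 in decitabine. The groups overlapped, and the pairs differed by -0.22, -0.54 and -1.77, so that replicate 3 carried most of the mean change of -0.84 (95% interval -1.57 to -0.11, adjusted p = 0.128). KDM4A was at 6.49, 7.12 and 7.36 untreated and 6.14, 6.61 and 6.73 in decitabine, a change of -0.50 with an adjusted p of 0.0559 in the paired fit, just outside the threshold. Under other settings KDM4A was called. Its limma adjusted p was 0.0339 with quantile normalization, 0.0223 with the dimmer 50% of genes left out and 0.0163 with the intensity trend. KDM4C had a change of -0.21. The H3K4 demethylases KDM5A and KDM5B had changes of -0.05 and -0.41 and the H3K9 demethylase KDM3B one of 0.15, none past the threshold.

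In Polycomb repressive complex 2, the catalytic subunit EZH1 fell while EZH2 and SUZ12 did not pass the test. EZH1 (2145), the catalytic subunit that predominates in resting cells, had values of 6.72, 7.03 and 7.09 untreated and 5.95, 6.09 and 6.27 in decitabine. All decitabine values were below all untreated ones. Means ± SD over the 3 arrays of a group were 6.95 ± 0.20 untreated and 6.10 ± 0.16 in decitabine, a 1.79-fold lower level and a change of -0.84 on the log2 scale (SE 0.12, limma adjusted p = 0.0109, and 0.0820 without the block). EZH2, the catalytic subunit of dividing cells, was at 7.57, 7.54 and 7.38 untreated and at 7.88, 7.73 and 7.58 in decitabine. Its groups did not overlap, and its change of 0.23 (95% interval -0.06 to 0.53) had an adjusted p of 0.272. SUZ12, the core scaffold subunit, was at 9.47, 9.52 and 9.29 untreated and 9.79, 9.91 and 9.69 in decitabine, again without overlap, with a change of 0.37 (0.08 to 0.66) and an adjusted p of 0.102.

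None of the 3 measured genes of Polycomb repressive complex 1 passed. RING1, a ubiquitin ligase for histone H2A, was at 6.08, 5.84 and 5.98 untreated and 5.80, 5.32 and 5.42 in decitabine, all decitabine values the lower, a change of -0.45 (95% interval -0.77 to -0.14) with an adjusted p of 0.0735. The 6 array features of RING1 held the same values, so they count as 1 measurement. The chromodomain proteins CBX2 and CBX7, which read the Polycomb mark, had changes of 0.24 and -0.02.

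**Figure D2:**
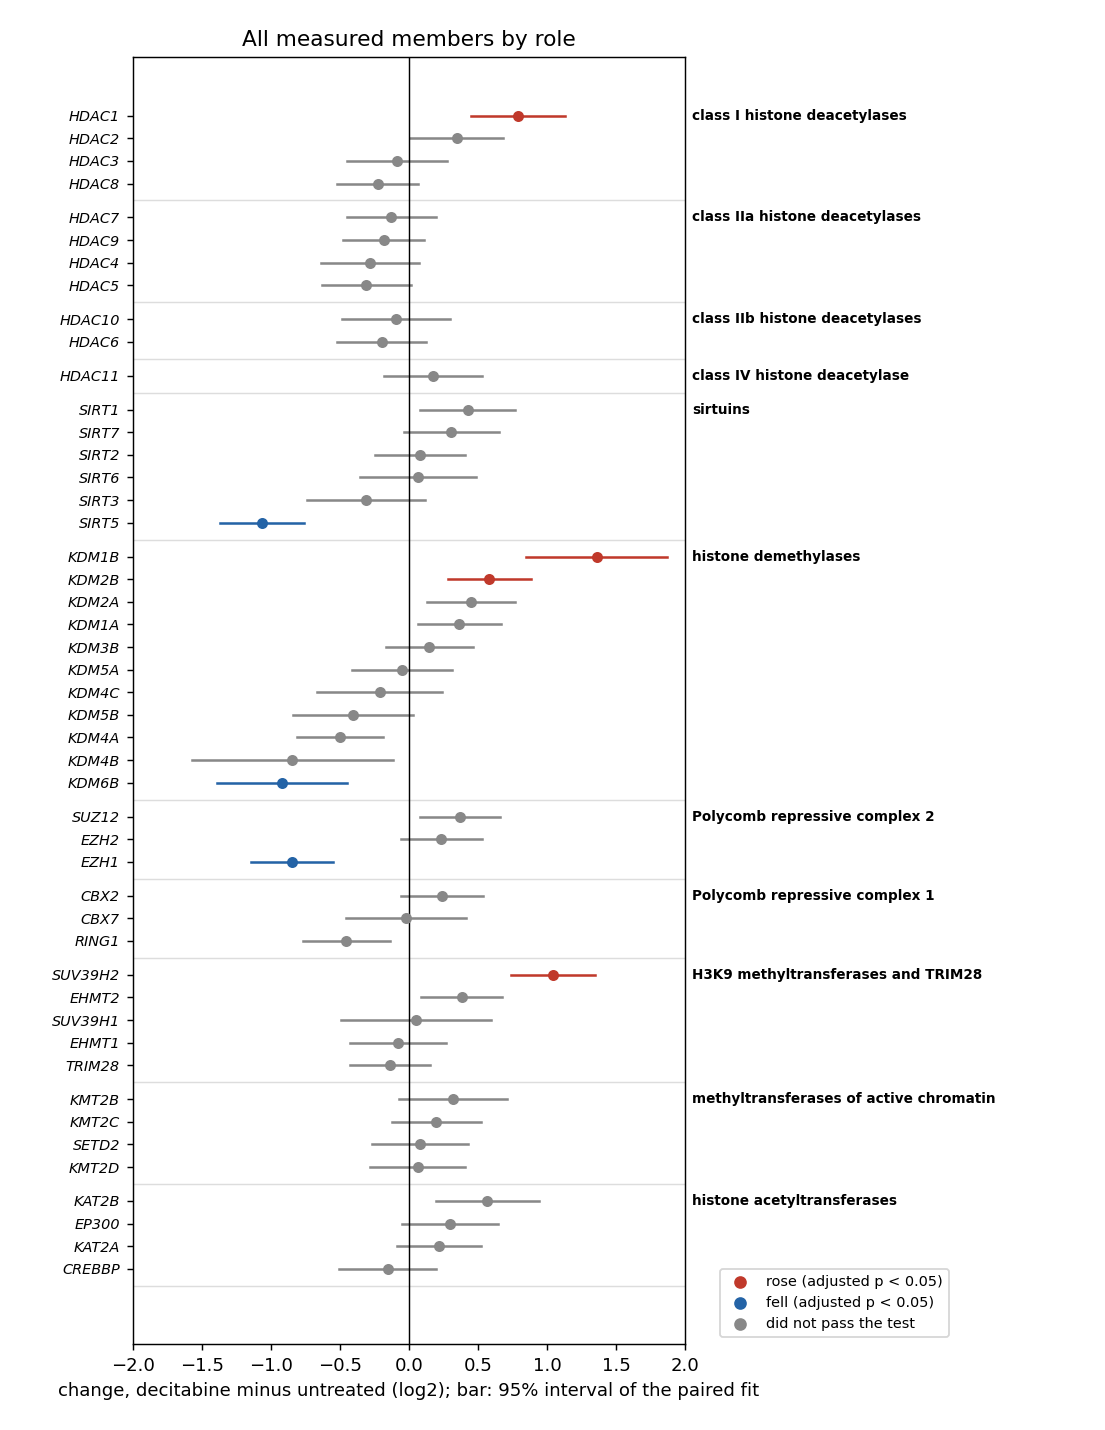
Change of each of the 47 measured members after decitabine (horizontal axis, log2) with its 95% interval from the paired fit, grouped by role and coloured by call. The 4 red points (KDM1B, SUV39H2, HDAC1, KDM2B) and 3 blue points (SIRT5, KDM6B, EZH1) passed the threshold, and the other 40 members lie between -0.84 and 0.57.

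Among the 5 measured genes of H3K9 methylation, SUV39H2 rose. SUV39H2 (79723), which trimethylates H3K9 in heterochromatin around centromeres, had values of 5.94, 5.89 and 5.97 untreated and 7.03, 7.03 and 6.87 in decitabine. Both groups were tight, and about 1 log2 unit parted them in each pair. The group means were, ± SD with n = 3, 5.93 ± 0.04 untreated and 6.98 ± 0.09 in decitabine, a 2.06-fold higher level and a change of 1.04 on the log2 scale (SE 0.13, limma adjusted p = 0.00639, and 0.0259 without the block). It was the member called in both fits. SUV39H1, its paralogue on the X chromosome, was at 3.73, 4.28 and 4.66 untreated and 4.30, 4.41 and 4.12 in decitabine, with overlap and with pair changes of 0.57, 0.13 and -0.54, and its dimmer feature gave -0.05 where the one used gave 0.05. EHMT2 (G9a), which places mono- and dimethylation on H3K9, was at 4.41, 4.03 and 4.18 untreated and 4.77, 4.37 and 4.63 in decitabine, a change of 0.38 (95% interval 0.09 to 0.68) with an adjusted p of 0.0951. EHMT1 (GLP), the partner of G9a, had a change of -0.08, and TRIM28, the corepressor that zinc finger proteins use to silence transposons, one of -0.14 (-0.43 to 0.15), neither past the threshold.

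None of the methyltransferases of active chromatin passed. The H3K4 methyltransferases KMT2B, KMT2C and KMT2D had changes of 0.32, 0.20 and 0.06, and SETD2, which trimethylates H3K36 along transcribed genes, one of 0.08, with intervals that all included 0. The acetyltransferases did not pass either. KAT2B (PCAF), of the SAGA-type complexes, had values of 5.91, 6.02 and 5.84 untreated and 6.70, 6.69 and 6.08 in decitabine. The groups did not overlap, but decitabine replicate 3 lay close to the untreated values, and the change of 0.57 (95% interval 0.19 to 0.94) had an adjusted p of 0.0650. Its paralogue KAT2A (GCN5) had a change of 0.22. The coactivators EP300 and CREBBP had changes of 0.30 and -0.15.

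The changes of closely related members were set side by side within each pair of samples. The change of EZH2 exceeded that of EZH1 by 1.08, 1.13 and 1.02 in the 3 pairs, a mean of 1.08 ± 0.06 (SD, n = 3 pairs). SUV39H2 exceeded SUV39H1 by 0.52, 1.01 and 1.44, and KDM1B exceeded KDM1A by 1.61, 1.00 and 0.38. Of all 9 sets set side by side, the SD over the pairs of samples was smallest for EZH2 over EZH1 (0.055). It was close to that of EP300 over CREBBP (0.061) and of KDM2B over KDM2A (0.08). With 3 values each, these SDs do not rank the sets. HDAC1 exceeded HDAC2 by 0.29, 0.15 and 0.89, EP300 exceeded CREBBP by 0.48, 0.38 and 0.49, and KDM2B exceeded KDM2A by 0.05, 0.14 and 0.21. SIRT3 exceeded SIRT5 by 1.07, 0.40 and 0.78, EHMT2 exceeded EHMT1 by 0.17, 0.54 and 0.68, and KAT2B exceeded KAT2A by 0.44, 0.52 and 0.09. The difference had the same sign in all pairs of samples in all 9 sets, in which the first named gene is the one of higher mean change. Not all related members were set side by side. KDM4C, for example, changed by 0.17, -0.13 and -0.67 in the pairs and KDM4A by -0.35, -0.51 and -0.63, so their order turned in pair 3. The 9 sets were set out after their values were seen, so the shared sign may follow from the choice. As 3 pairs of samples cannot give an exact sign-flip p below 0.25, the differences are given without a test.

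**Figure D3:**
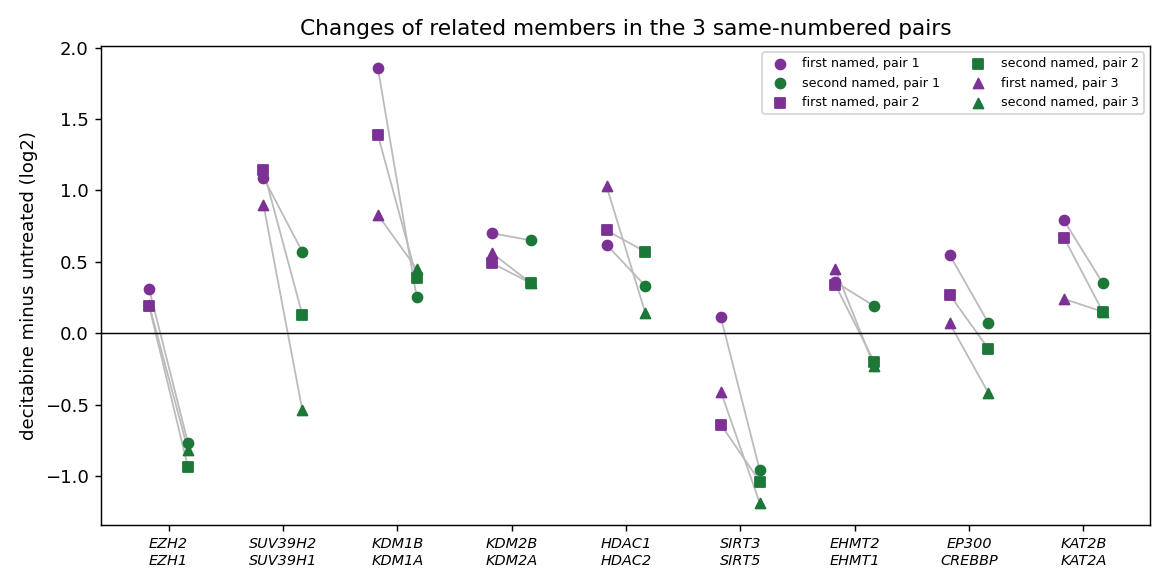
Change in each same-numbered pair of arrays (vertical axis, log2) for 9 sets of related members, the first named in purple on the left and the second in green on the right, with a line joining values of 1 pair. All EZH2 points lie above 0 (0.19 to 0.31) and all EZH1 points below it (-0.94 to -0.77).

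Other genes of the same machinery came from 6 lists of chromatin genes. Of their 179 genes 138 were measured, of which 15 rose and 13 fell (20.3%, against 13.2% of all genes), with a median change of 0.05. Brightness was not matched in this comparison: with the dimmer 50% of genes left out of the test, 32.8% of genes were called. Without the block 4 of the 138 rose and 3 fell, against 2.01% and 1.02% of all genes. Among other Polycomb genes 7 of 31 rose and 3 fell (32.3% called). Over all genes 7.79% rose and 5.37% fell, and with the dimmer 50% left out 17.6% rose and 15.2% fell. SFMBT1, a reader of methylated histones, rose by 1.90 (SE 0.22, limma adjusted p = 0.00565), SCML2, a Polycomb-associated protein, by 1.21, and SCMH1, another relative of the Sex comb on midleg protein, fell by 1.20 (SE 0.12, adjusted p = 0.00381). Among other demethylases 2 of 14 rose and 2 fell (28.6% called). KDM7A, a demethylase of H3K9 and H3K27, went from 7.13, 7.41 and 7.68 to 5.18, 5.06 and 4.6. That change of -2.46 (SE 0.22, adjusted p = 0.00305) was larger than that of any member, and it was called without the block too (0.00276). KDM8 and JMJD6, oxygenases of the JmjC family, rose by 0.60 and 0.65.

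Of the other acetyltransferases and their subunits none of 24 rose and 5 fell. The SAGA subunit SUPT3H fell by 1.55 on the log2 scale (SE 0.13, limma adjusted p = 0.00259), and the adaptors TADA2A and TADA1 by 0.94 and 0.68. Of 23 deacetylase complex genes 1 rose and 3 fell: the CoREST scaffold RCOR1 rose by 0.85, and PHF21A, of the same complex, and MTA1, of the NuRD complex, fell by 0.99 and 0.86. Of 17 heterochromatin proteins and cofactors 4 rose and none fell, among them UHRF1, which reads H3K9 methylation and hemimethylated DNA, by 1.59, ATF7IP2, a cofactor of H3K9 silencing, by 1.06, and MORC2, of the HUSH pathway, by 0.85. Of 29 other histone methyltransferases 1 rose, SMYD2 by 0.65, and none fell. The shares called in these lists were 20.8%, 17.4%, 23.5% and 3.45%, in the order given. Over all genes 7.79% rose and 5.37% fell, and with the dimmer 50% left out 17.6% rose and 15.2% fell.

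**Figure D4:**
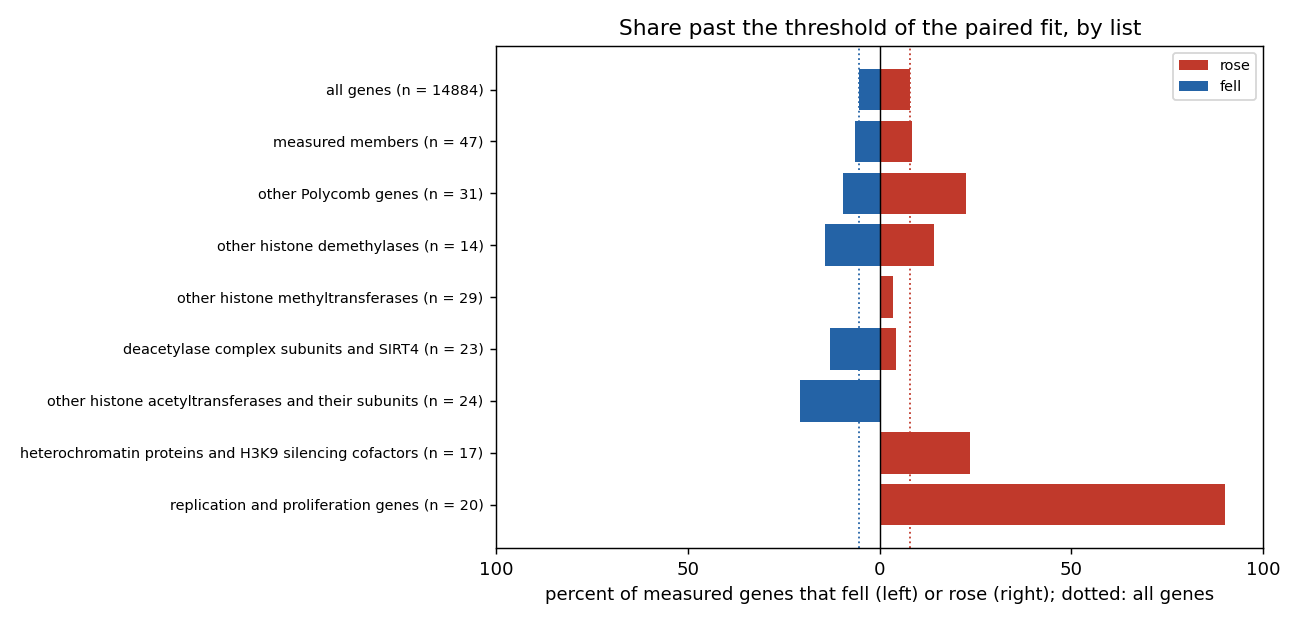
Percent of measured genes that rose (right, red) or fell (left, blue) in the paired fit, for all genes, the members and each list, with dotted lines at the shares of all genes (7.79% and 5.37%). Bars of the members end near the dotted lines, while 18 of 20 replication and proliferation genes rose.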

How the data were processed

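Total RNA of 6 SUM159 samples was measured on biotin-labelled arrays. The deposited values came from the Transcriptome Analysis Console, as the submitters' processing notes say. No version, normalization, filter or genome build is stated in the labels. The scale is not stated either: the deposited values, of 0.17 to 12.89 with 2 decimals, are read here as log2. Groups and replicate numbers came from the sample titles; control titles also print the dose, read here as naming the experiment, and the protocol calls the drug a deoxy-azacytidine. Nothing says that samples were separate cultures, so p-values cover only the spread among these arrays and may reflect technical spread. The number of arrays limits the precision.

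Of 48226 features 16098 had a single gene symbol, and all of these matched RefSeq (GRCh38.p14) by Entrez Gene ID, giving 14884 genes. Limma 3.58.1 in R 4.3.3 (lmFit, eBayes) was fitted on all 6 arrays with the replicate number as a block. P-values were two-sided and Benjamini-Hochberg adjusted over all genes, and intervals are 95% from that fit. The block was used because the comparison was defined as paired and same-numbered arrays deviated together: deviations from group means correlated at 0.682, 0.595 and 0.558 over all genes, against -0.483 to -0.006 between different numbers. Deviations within a group cancel out, so positive correlations at the same number by themselves push the others below zero. Same-numbered arrays also held 6.44%, 7.94% and 8.28% identical values over all features, against 0.42% to 0.83% between different numbers. The cause of these shared values was not tested. The fit was tested on simulated data. Members, lists and the choice of the block were set with earlier results of these data known. Every member is accounted for; all 6 values are given for called members and the 3 largest changes not called, and other sets of values were chosen after they were seen. In each pathway list up to 3 called genes with the largest changes are named.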

Additional observations from a re-analysis of the deposited data

How the results depend on the processing

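Alternatives were the fit with no replicate block, quantile normalization, median centring, the dimmer 50% of genes left out, the mean of a gene's features, an intensity trend in the variance prior, adjustment over all features, and each replicate left out. The 7 called members kept their call with quantile normalization, median centring, the dim genes left out, the mean of features and the trend, and 5 kept it when all features were adjusted together. Of the 40 members not called in the paired fit, 3 were called with quantile normalization, 6 with the dim genes left out and 7 with the trend. Genes called numbered 1959 in the paired fit, 451 with no replicate block, 1188 with all features adjusted together, 2668 with the trend, 2271 with quantile normalization and 2443 with dim genes left out. Members called numbered 7 in the paired fit, 1 with no replicate block, 13 of 41 (31.7%, against 32.8% of genes) with dim genes left out, 14 (29.8%, against 17.9%) with the trend and 10 (21.3%, against 15.3%) with quantile normalization. Brightness was not matched in the shares for the trend and quantile normalization. Without replicate 1, 2 or 3, 0 genes and 0 members were called by limma at the adjusted threshold in each case. In these fits 2449 to 3514 genes (16.5% to 23.6%) and 7 to 17 members (14.9% to 36.2%) had an unadjusted p under 0.05. The fit with no replicate block and a replicate left out was chosen after seeing the data. It called 388 genes without replicate 1, 18 without replicate 2 and 17 without replicate 3, and 0 members. In it 4 to 10 members (8.51% to 21.3%) had an unadjusted p under 0.05, against 6.38% to 15.6% of all genes. Leaving out a replicate turned the sign of 10 members, none of them called. The ranges were -0.18 to 0.20 for CBX7, -0.26 to 0.06 for HDAC10, -0.175 to 0.07 for HDAC3, -0.40 to 0.02 for KDM4C, -0.155 to 0.10 for KDM5A, -0.055 to 0.165 for KMT2D, -0.05 to 0.18 for SETD2, -0.025 to 0.14 for SIRT2, -0.07 to 0.28 (-0.01 without replicate 1) for SIRT6 and -0.205 to 0.35 for SUV39H1. The cause of these shifts was not tested, beyond the fewer samples in the fits. Signal over background was not assessed, which limits the dim members most.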
